A study of Mus musculus with 11 samples.

Results

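*Cfap43*, *Shroom2*, *Tle1* and *Glul* are 4 protein-coding genes of the 29307 genes listed in the count table of sorted mouse liver endothelial cells (ECs). They were chosen by name because their RNA was higher in germ-free (GF) than in conventionally raised (CONV-R) mice in these same libraries. The difference between the groups is therefore given for these 4 genes as a description, without a test. All 4 were among the 12905 genes that had enough counts to be tested. They were grouped as little-studied protein genes, a label that suits *Cfap43* better than *Tle1* and *Glul*, whose proteins are well known.

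The libraries came from male C57BL/6J mice aged 10 to 12 weeks, 6 CONV-R mice and 5 GF mice, with 1 library per mouse. GF mice were bred in sterile isolators, whereas CONV-R mice were derived from the same colonies, carried a specific-pathogen-free microbiota and ate the same diet. Liver cells were enriched magnetically for CD146 and then sorted by flow cytometry for CD31, CD105 and CD146, which all ECs analysed here share. The sorted cells had low viability, GF livers gave fewer sorted cells and less RNA than CONV-R livers, the RNA of both groups was amplified as cDNA from the same input before sequencing, and the authors removed 1 further GF library with few mapped reads. GF replicates are numbered 1, 2, 4, 5 and 6 in the labels.

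The proteins of these genes work in different parts of the cell. CFAP43 is a component of the axoneme of motile cilia and sperm flagella, where it helps to tether the dynein motors that bend them. SHROOM2 binds actin and recruits a kinase to cell junctions, where actomyosin contraction shapes the cell border, and it has been studied in endothelial sheets. TLE1 is a corepressor of the Groucho family that is brought to DNA by factors such as HES, HEY, TCF and RUNX proteins. GLUL is glutamine synthetase, which joins ammonia to glutamate, and in the liver it is best known from the hepatocytes around the central vein.

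Levels are given as CPM, which relate the deposited counts to library totals that were adjusted by the trimmed mean of M values (TMM). Library totals lay between 7922855 and 14669352 counts in CONV-R mice and between 7242717 and 16164588 counts in GF mice. The sinusoidal EC identity of the samples was checked with 8 marker genes, whose summed level was 25177 to 32629 CPM in CONV-R mice and 25652 to 34928 CPM in GF mice. Of the sorting markers, *Pecam1* (CD31) was at 562 ± 106 and 772 ± 207 CPM, *Eng* (CD105) at 2004 ± 430 and 2402 ± 491 CPM and *Mcam* (CD146) at 236 ± 34 and 306 ± 47 CPM in CONV-R and GF mice. Of the 8 pan-endothelial markers that include them, 1 passed the test (2.67% of all tested genes passed as lower), *Erg*, which fell from 238 ± 64 to 148 ± 19 CPM (Log2FC -0.68, SE 0.15, edgeR adjusted p = 0.0122), with every GF mouse below every CONV-R mouse. The summed level of 10 Kupffer cell markers was 85.1 to 224 CPM in CONV-R mice and 193 to 912 CPM in GF mice, and 6 of these 10 markers rose in GF mice, against 4.80% of all tested genes. The 6 cholangiocyte markers summed to 0.615 to 9.21 CPM and 13.7 to 36.8 CPM, and 1 of the 2 that could be tested, *Spp1*, rose, against the same 4.80%. The part of *Erg* and of the cholangiocyte markers in the levels of the 4 genes was not tested. In bulk RNA, more cells of a type and more RNA per cell cannot be told apart.

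The 4 genes lie on 4 chromosomes of GRCm38. *Cfap43* (ENSMUSG00000044948) spans bases 47736857 to 47919287 of chromosome 19 on the minus strand, and its annotated exons cover 7059 bases. *Shroom2* (ENSMUSG00000045180) spans bases 152609509 to 152769465 of chromosome X on the minus strand, with 8375 exonic bases. *Tle1* (ENSMUSG00000008305) spans bases 72117142 to 72200919 of chromosome 4 on the minus strand, with 8711 exonic bases. *Glul* (ENSMUSG00000026473) spans bases 153899944 to 153909723 of chromosome 1 on the plus strand, with 3323 exonic bases.

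The sequences directly upstream of the 4 genes are shown because these genes were all higher in GF mice and the letters of common promoter elements can be compared between them. Each is the 250 bases before a RefSeq transcription start on GRCm38.p6, written 5′ to 3′ on the strand of the gene, and capitals mark every match to the motifs searched. The windows are chr19:47837362-47837611 (minus strand) for *Cfap43*, chrX:152769487-152769736 (minus strand) for *Shroom2*, chr4:72200894-72201143 (minus strand) for *Tle1* and chr1:153899679-153899928 (plus strand) for *Glul*. RefSeq gave 4 starts for *Shroom2*, of which the one at the 5′ end of the gene was taken, and the RefSeq start of *Cfap43* lies inside the longer span that GENCODE annotates.
Cfap43: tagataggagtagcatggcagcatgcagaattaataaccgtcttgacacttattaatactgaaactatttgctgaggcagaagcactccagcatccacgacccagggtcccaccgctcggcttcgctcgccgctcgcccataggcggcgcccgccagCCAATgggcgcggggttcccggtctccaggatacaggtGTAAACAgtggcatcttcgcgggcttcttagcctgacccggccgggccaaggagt
Shroom2: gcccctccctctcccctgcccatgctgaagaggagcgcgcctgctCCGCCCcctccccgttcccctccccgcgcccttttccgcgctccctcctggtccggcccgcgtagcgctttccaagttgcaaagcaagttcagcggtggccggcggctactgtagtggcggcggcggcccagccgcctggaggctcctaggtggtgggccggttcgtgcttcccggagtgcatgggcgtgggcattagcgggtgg
Tle1: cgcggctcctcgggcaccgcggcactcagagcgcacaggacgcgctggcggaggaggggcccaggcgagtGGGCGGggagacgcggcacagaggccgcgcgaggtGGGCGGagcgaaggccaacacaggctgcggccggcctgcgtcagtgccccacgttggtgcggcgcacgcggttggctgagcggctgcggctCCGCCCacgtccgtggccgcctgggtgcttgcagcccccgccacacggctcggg
Glul: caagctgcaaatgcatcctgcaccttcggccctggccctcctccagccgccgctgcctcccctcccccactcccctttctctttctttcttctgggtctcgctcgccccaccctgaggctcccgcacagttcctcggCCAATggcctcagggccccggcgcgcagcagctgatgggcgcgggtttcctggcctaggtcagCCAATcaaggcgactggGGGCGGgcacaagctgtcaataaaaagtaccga

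All 4 windows were richer in G and C than the median of 52.4% over 32851 mouse promoters of the same length. The GC content was 58.4% for *Cfap43*, 71.2% for *Shroom2*, 77.2% for *Tle1* and 64.8% for *Glul*. The windows held 18, 24, 35 and 15 CpG dinucleotides, in the same order, against a median of 6. *Tle1*, with the highest values of both measures, thus had the most CpG-rich of the 4 upstream windows.

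6 motifs were searched on both strands. The CCAAT box, CCAAT, was found in *Cfap43* (first base at -93 from the start) and at -113 and -50 in *Glul*, and 33.8% of all promoters hold it. The GC box, GGGCGG, was found at -205 in *Shroom2*, at -180, -145 and -54 in *Tle1* and at -33 in *Glul*, and 32.7% of all promoters hold it. The forkhead motif TGTTTAC was found on the minus strand of *Cfap43* at -55, where it reads GTAAACA in the line above, and 3.17% of all promoters hold it. None of these matches overlapped another. The letters TATAAA (12.4% of all promoters), CACGTG (6.02%) and TGTTCT (16.1%) were in none of the 4 windows, which says only that these letters are not in these bases. No motif searched was found in all 4 genes.

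In GF mice, *Cfap43* RNA was 3.68 times, *Glul* RNA 2.65 times, *Shroom2* RNA 2.35 times and *Tle1* RNA 2.29 times the mean level of CONV-R mice. For each of the 4 genes, the lowest GF mouse was above the highest CONV-R mouse. Over all tested genes, every GF mouse was above every CONV-R mouse for 415 of 12905 genes, or 3.22%, and 620 genes, or 4.80%, passed the threshold as higher in GF mice with edgeR's quasi-likelihood test at an adjusted p of 0.05. In the other direction, every GF mouse was below every CONV-R mouse for 306 genes, or 2.37%, and 345 genes, or 2.67%, passed as lower. Since the 4 genes were chosen for this direction, nothing is read from their place among these.

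**Figure D1:**
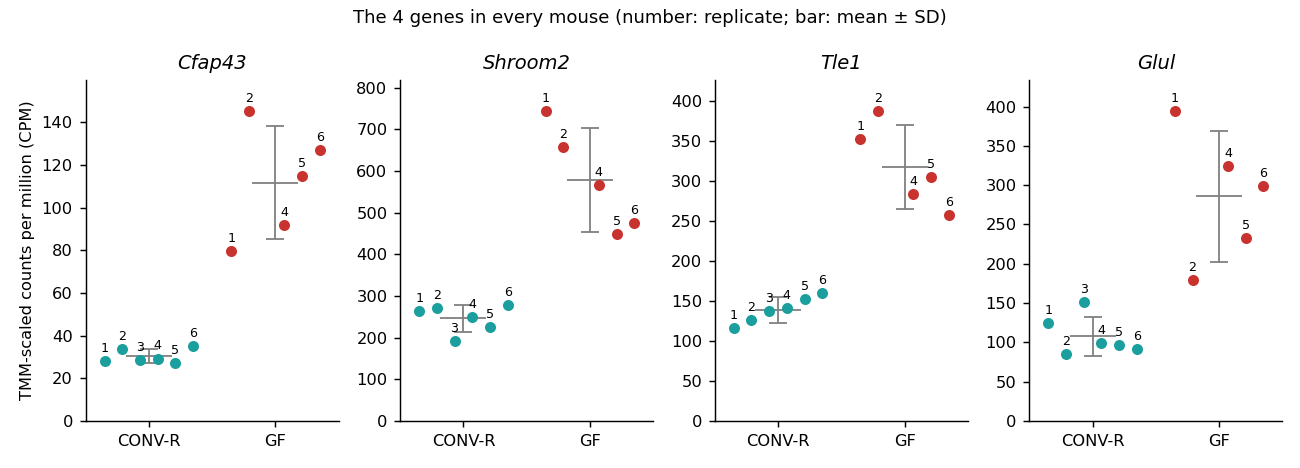
Level of each of the 4 genes in every mouse, in CPM on a linear axis from 0, with 1 point per mouse numbered by replicate and bars for the mean ± SD of each group. In each panel the 5 GF points lie above all 6 CONV-R points, with the narrowest gap for *Glul* (178.7 CPM in the lowest GF mouse and 150.9 CPM in the highest CONV-R mouse).

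*Cfap43* had the largest ratio between the groups and the lowest level. In CONV-R mice it ranged from 27.1 to 35.2 CPM, with 28.8 CPM as the median (231 to 496 counts per library, mean 30.3 ± 3.4 CPM, SD, n = 6). In GF mice 1, 2, 4, 5 and 6 it was at 79.9, 145, 91.9, 115 and 127 CPM (mean 112 ± 26 CPM, SD, n = 5). The CONV-R mice lay close together, and the GF mice were spread from GF mouse 1, the lowest, to GF mouse 2, the highest. The Log2FC was 1.88 (SE 0.15), and the lowest GF mouse was 2.27 times the highest CONV-R mouse.

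*Shroom2* was the most abundant of the 4 in CPM. CONV-R mice had 192 to 279 CPM around a median of 256 CPM (mean 246 ± 33 CPM, SD, n = 6). GF mice 1, 2, 4, 5 and 6 had 745, 658, 567, 448 and 474 CPM (mean 578 ± 125 CPM, SD, n = 5). GF mice 5 and 6 were the lowest of their group, yet above every CONV-R mouse, the lowest of them at 1.61 times the highest CONV-R mouse. The Log2FC was 1.23 (SE 0.14).

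*Tle1* was the least spread of the 4 genes among GF mice. CONV-R mice ranged from 116 to 160 CPM with a median of 139 CPM (mean 139 ± 16 CPM, SD, n = 6), and GF mice 1, 2, 4, 5 and 6 had 353, 388, 284, 305 and 258 CPM (mean 318 ± 53 CPM, SD, n = 5). GF mouse 6, the lowest of its group, was at 1.62 times the highest CONV-R mouse. The Log2FC was 1.19 (SE 0.12).

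*Glul* varied most from mouse to mouse in both groups. CONV-R mice ranged from 85.2 to 151 CPM with a median of 97.8 CPM (mean 108 ± 25 CPM, SD, n = 6). In GF mice 1, 2, 4, 5 and 6 it was at 395, 179, 325, 233 and 299 CPM (mean 286 ± 83 CPM, SD, n = 5). CONV-R mouse 3 was the highest of its group and GF mouse 2 the lowest, and these came within 1.18 times of each other. The Log2FC was 1.41 (SE 0.19).

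*Cfap43* was the steadiest of the 4 genes in CONV-R mice, but not in GF mice. In CONV-R mice the SD of log2 CPM was 0.16 for *Cfap43*, 0.17 for *Tle1*, 0.20 for *Shroom2* and 0.31 for *Glul*, against a median of 0.30 over all tested genes. In GF mice it was 0.35, 0.24, 0.31 and 0.44, in the same order of genes, against a median of 0.34. Thus *Cfap43*, *Tle1* and *Shroom2* were steadier than most genes in CONV-R mice, and *Glul* was near the middle, with 52.2% of tested genes less variable. Counting error adds to the SD of genes with few counts, and the comparison was not matched for level.

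The deposited normalized log2 values gave the same direction for each gene with smaller differences. On that scale GF minus CONV-R was 1.55 for *Cfap43*, 1.05 for *Shroom2*, 1.01 for *Tle1* and 1.18 for *Glul*. The 4 genes thus kept the order *Cfap43*, *Glul*, *Shroom2*, *Tle1* on both scales.

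Per kilobase of exon, *Glul* and *Shroom2* were the highest of the 4 and *Cfap43* the lowest. The length used is that of all annotated exons together, not of the transcripts expressed here, so comparisons between genes are approximate. In CONV-R mice *Glul* was at 32.5 ± 7.5 CPM per kb, *Shroom2* at 29.4 ± 3.9, *Tle1* at 15.9 ± 1.9 and *Cfap43* at 4.30 ± 0.48 (mean ± SD, n = 6). In GF mice they were 86.1 ± 25.1, 69.1 ± 14.9, 36.5 ± 6.0 and 15.8 ± 3.7 CPM per kb (mean ± SD, n = 5), in the same order of genes. *Glul* and *Shroom2* did not differ beyond their spread, since their order was reversed in CONV-R mice 2 and 6 and in GF mouse 2, whereas *Tle1* stood below both and *Cfap43* below *Tle1* in all 11 mice.

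**Figure D2:**
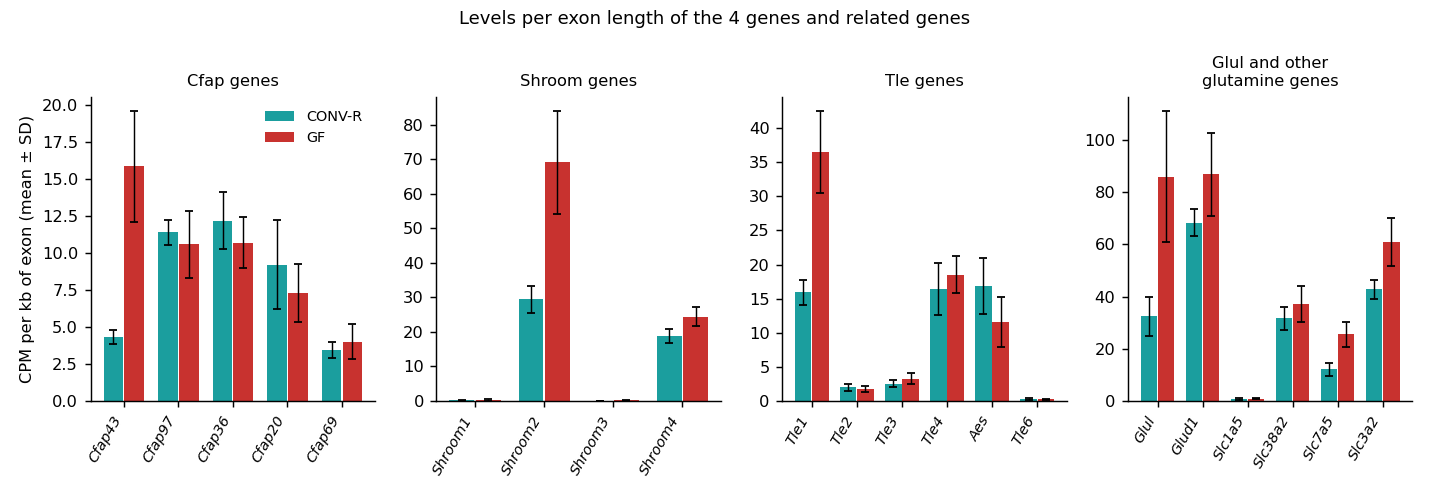
Level per kilobase of exon of the 4 genes and of named relatives or partners of each, in CPM per kb on linear axes from 0 that differ between panels, as group means with error bars for the SD over 6 CONV-R and 5 GF mice. *Glul* (32.5 and 86.1 CPM per kb) and *Shroom2* (29.4 and 69.1) are well separated between the groups, whereas *Tle4* (16.4 and 18.5) and *Slc38a2* (31.6 and 37.0) lie closer together.

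The mouse that was highest for 1 gene was often not the highest for another. Among GF mice, mouse 1 was the highest for *Shroom2* and *Glul* and the lowest for *Cfap43*, whereas mouse 2 was the highest for *Cfap43* and *Tle1* and the lowest for *Glul*. Among CONV-R mice, mouse 6 was the highest for *Cfap43*, *Shroom2* and *Tle1*, and mouse 2, the next highest for *Cfap43* and *Shroom2*, was the lowest for *Glul*. *Cfap43* and *Glul* thus lay at opposite ends of the group in GF mice 1 and 2.

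Relations between the genes were tested over the 6 CONV-R mice, since both groups form separate clusters and 5 GF mice are too few. *Shroom2* and *Glul* had Pearson's r = -0.71 (p = 0.103, two-sided exact permutation test) and Spearman's ρ = -0.71 (p = 0.136, exact permutation). *Cfap43* and *Shroom2* had r = 0.66 (p = 0.128, exact permutation) and ρ = 0.71 (p = 0.136, exact permutation), and *Cfap43* and *Glul* had r = -0.59 (p = 0.186, exact permutation) and ρ = -0.54 (p = 0.297, exact permutation). None of the 6 pairs passed after Benjamini-Hochberg adjustment, with a lowest adjusted p of 0.372 for r and 0.408 for ρ over exact permutation tests. Without the 2 mice farthest from the median of the first-named gene, r was -0.30, 0.22 and 0.16 for these pairs. Leaving out the extreme mice narrows the range and leaves fewer mice, so this cannot show on which mice the values rest.

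*Cfap43* with *Tle1* (r = 0.18 and ρ = 0.26, exact permutation p = 0.722 and 0.658), *Shroom2* with *Tle1* (r = -0.12 and ρ = 0.09, exact permutation p = 0.831 and 0.919) and *Tle1* with *Glul* (r = -0.32 and ρ = -0.31, exact permutation p = 0.535 and 0.564) were nearer to 0. Without the 2 farthest mice their r was -0.34, 0.24 and 0.13.

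As a description of all 11 libraries, each gene was also expressed as its log2 deviation from the mean of its own group. *Cfap43* and *Glul* deviated in opposite directions, with r = -0.78, which lay between -0.84 and -0.69 when any single mouse was left out. In all these values with a mouse left out, the group means were still those of all mice. *Shroom2* and *Tle1* deviated together more loosely, with r = 0.43 (0.32 to 0.54 with a mouse left out). Such a value was not unusual, since *Tle1* ranked 2885 of 12904 genes by r with *Shroom2*, and *Shroom2* ranked 1948 with *Tle1*. *Tle1* and *Glul* had r = -0.36 (-0.57 to -0.11 with a mouse left out). The sign of the other pairs depended on single mice, with r = -0.12 (-0.46 to 0.11) for *Shroom2* and *Glul*, -0.11 (-0.31 to 0.27) for *Cfap43* and *Shroom2* and 0.10 (-0.23 to 0.33) for *Cfap43* and *Tle1*. The sign turned without CONV-R mouse 3 or GF mouse 2, without GF mouse 1, and without CONV-R mouse 6 or GF mouse 2, in the order of these pairs. These values share library, depth and scaling, and no p is given for them.

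**Figure D3:**
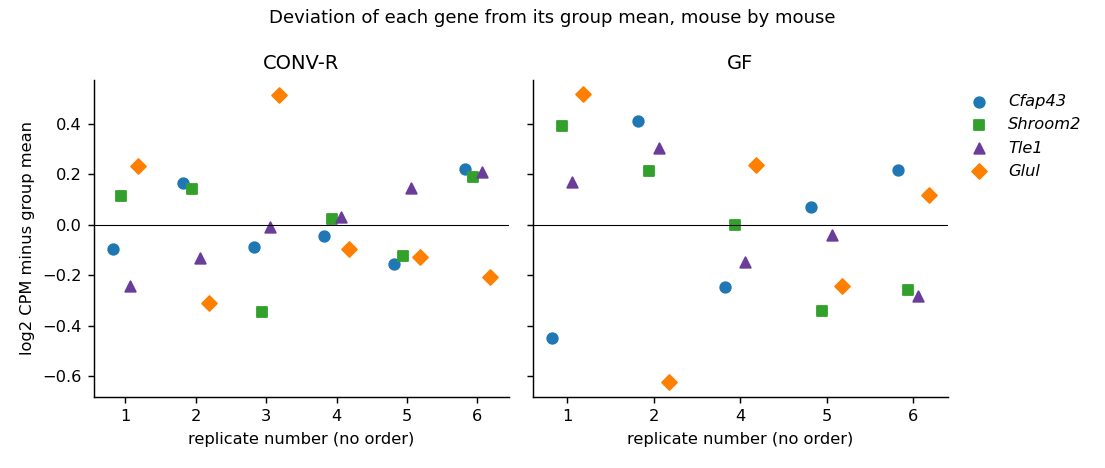
Deviation of each of the 4 genes from its group mean in log2 CPM, for each replicate number of the 6 CONV-R mice (left) and the 5 GF mice (right). *Cfap43* and *Glul* lie on opposite sides of 0 in GF mice 1 (-0.45 and 0.52) and 2 (0.41 and -0.63).

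The 3 genes whose deviations were most like those of each gene were read from the same values. For *Cfap43* these were *Adhfe1* (r = 0.91), *Lama3* (0.91) and *Aoc2* (0.89), of which *Adhfe1* fell in GF mice (Log2FC -0.78, SE 0.16, edgeR adjusted p = 0.00651). For *Shroom2* they were *Rnf125* (0.97), *Ppil2* (0.96) and *Hadha* (0.96), of which *Rnf125* rose (Log2FC 1.32, SE 0.37, edgeR adjusted p = 0.0396). For *Tle1* they were *Rab2b* (0.92), *Ttn* (0.91) and *Dnm3* (0.91), and for *Glul* they were *Lrpap1* (0.92), *Rpl3* (0.92) and *Ctdsp1* (0.91), none of which passed the test. *Rpl3* is a ribosomal protein gene with pseudogene copies that can share its reads, so its value is uncertain. These r were taken over 11 libraries and are the highest of 12904 genes.

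Other genes of motile cilia mostly did not pass the test. Of 42 listed genes of the Cfap family and the cilium, 12 were tested, of which 1 rose in GF mice (8.33%, against 4.80% of all tested genes). The Log2FC of 2 of the 12 genes was above 0, and their median was -0.22, against -0.01 over all tested genes. *Dnah2*, a heavy chain of inner dynein arms, rose from 5.32 ± 2.47 CPM to 11.2 ± 2.5 CPM (Log2FC 1.07, SE 0.29, edgeR adjusted p = 0.0297). CONV-R mouse 1, at 9.70 CPM, overlapped the GF mice, and without CONV-R mouse 2, 5 or 6 or GF mouse 1 or 2 the adjusted p rose to as much as 0.0777 (edgeR).

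Of the other Cfap genes, the 3 with the highest mean level over all mice had values below 0 that did not pass the test. *Cfap97* was at 58.7 ± 4.4 CPM in CONV-R and 54.5 ± 11.6 CPM in GF mice (Log2FC -0.11, edgeR adjusted p = 0.675). *Cfap20* had a Log2FC of -0.33 (edgeR adjusted p = 0.389) and *Cfap36* one of -0.19 (edgeR adjusted p = 0.481). *Cfap69*, next in level, had one of 0.22 (edgeR adjusted p = 0.515). Per kilobase, *Cfap43* passed from below *Cfap97*, *Cfap20* and *Cfap36* in CONV-R mice (4.30 CPM per kb against 9.21 to 12.2) to above them in GF mice (15.8 against 7.31 to 10.7), in mean level.

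Of 8 marker genes of motile ciliated cells, 7 were listed and their summed level was 5.41 to 9.32 CPM in CONV-R mice and 2.71 to 9.05 CPM in GF mice. *Ccdc39*, which helps to assemble inner dynein arms, was the 1 of them with enough counts for a test, at 5.20 ± 0.85 and 5.04 ± 1.75 CPM (Log2FC -0.05, edgeR adjusted p = 0.949). *Foxj1*, the transcription factor that switches on the motile cilium program, had 67 counts in all 6 CONV-R libraries and 49 in the 5 GF libraries, of which 34 were in GF mouse 4 and 0 in GF mice 5 and 6. *Dnah5* had 43 and 22 counts, *Mcidas*, which commits cells to forming many cilia, 3 and 4, *Tekt1* 3 and 1, *Rsph1* 2 and 0 and *Pifo* 0 and 1. Their part in the *Cfap43* level was not tested.

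Some genes listed with SHROOM2 rose, but the tested genes of its kinase and of myosin did not pass the test. Of 15 tested genes of the list, 3 rose in GF mice (20%, against 4.80% of all tested genes), and the median Log2FC was 0.20. The kinase genes *Rock1* and *Rock2* had Log2FC of -0.04 and 0.09 (edgeR adjusted p = 0.874 and 0.625). The myosin heavy chain genes *Myh9* and *Myh10* had Log2FC of 0.20 and -0.05 (edgeR adjusted p = 0.479 and 0.906). *Rhoa*, a small GTPase that drives actomyosin contraction, rose from 72.5 ± 7.6 CPM to 117 ± 23 CPM (Log2FC 0.69, SE 0.13, edgeR adjusted p = 0.00422). Its lowest GF mouse (86.5 CPM in GF mouse 5) was above its highest CONV-R mouse (79.4 CPM), and its adjusted p stayed at or below 0.0119 in every alternative fit.

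*Vcl*, which encodes the junction and adhesion protein vinculin, rose from 84.2 ± 17.8 CPM to 124 ± 17 CPM (Log2FC 0.56, SE 0.15, edgeR adjusted p = 0.0314). *Shroom4*, the relative of *Shroom2* with the next highest level, rose from 167 ± 17 CPM to 216 ± 24 CPM (Log2FC 0.37, SE 0.11, edgeR adjusted p = 0.0461). Both calls were narrow. *Vcl* lost the threshold without CONV-R mouse 4, 5 or 6 or GF mouse 2, 4 or 6, and *Shroom4* kept it only without CONV-R mouse 1 or GF mouse 5 when single mice were left out, with adjusted p of up to 0.0795 and 0.11 (edgeR). Without the filter on low counts, *Shroom4* also did not pass (edgeR adjusted p = 0.114).

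The other Shroom genes were nearly absent. *Shroom1* was at 0.127 ± 0.103 CPM per kb in CONV-R and 0.301 ± 0.219 in GF mice (edgeR adjusted p = 0.239), and *Shroom3*, which had too few counts for a test, at 0.0269 ± 0.0384 and 0.144 ± 0.136. *Shroom2* and *Shroom4* thus made up nearly all RNA of this family, at 29.4 and 18.8 CPM per kb in CONV-R mice and 69.1 and 24.4 in GF mice.

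Of the transcription factors and relatives listed with TLE1, 14 were tested and 2 rose in GF mice (14.3%, against 4.80% of all tested genes), with a median Log2FC of 0.23. *Hey1*, a Notch target that recruits corepressors to DNA, rose from 6.55 ± 2.44 CPM to 14.4 ± 3.4 CPM (Log2FC 1.14, SE 0.26, edgeR adjusted p = 0.0127). Its groups did not overlap, but barely, with 10.3 CPM in CONV-R mouse 6 and 10.6 CPM in GF mouse 1. *Prdm1*, which encodes the zinc finger repressor BLIMP1, rose from 12.5 ± 3.2 CPM to 26.6 ± 7.4 CPM (Log2FC 1.09, SE 0.21, edgeR adjusted p = 0.00481). Here GF mouse 5, at 16.7 CPM, lay within the CONV-R range. *Prdm1* is also expressed by lymphocytes and macrophages, and the part of the higher Kupffer cell markers in its values was not tested.

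The relatives of *Tle1* did not pass the test. *Tle4*, with nearly the level of *Tle1* per kilobase in CONV-R mice (16.4 ± 3.8 against 15.9 ± 1.9 CPM per kb), had a Log2FC of 0.18 (edgeR adjusted p = 0.547). *Tle3* had a Log2FC of 0.35 (edgeR adjusted p = 0.252), *Tle2* one of -0.16 (edgeR adjusted p = 0.719), and *Aes*, a short member of the family that lacks the WD40 repeats, one of -0.53 (edgeR adjusted p = 0.118). In GF mice, *Tle1* was at 36.5 ± 6.0 CPM per kb and *Tle4* at 18.5 ± 2.7.

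Of the genes of glutamate and glutamine handling, 22 were tested and 2 rose in GF mice (9.09%, against 4.80% of all tested genes). The Log2FC of 19 of the 22 genes was above 0, as it was for 6337 of all 12905 tested genes, and their median was 0.33. *Slc7a5*, the LAT1 carrier that exports glutamine in exchange for large neutral amino acids, rose from 44.8 ± 8.7 CPM to 95.0 ± 17.8 CPM (Log2FC 1.08, SE 0.16, edgeR adjusted p = 0.00049). *Slc3a2*, the heavy chain that pairs with LAT1 at the membrane, rose from 151 ± 13 CPM to 215 ± 32 CPM (Log2FC 0.51, SE 0.11, edgeR adjusted p = 0.0113). Every GF mouse had more *Slc7a5* (68.0 CPM or more) than any CONV-R mouse (54.7 CPM or less), whereas for *Slc3a2* GF mouse 2, at 165 CPM, lay below CONV-R mouse 3, at 168 CPM. Thus both chains of the same exchanger rose.

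Other enzymes and carriers of glutamine did not pass the test. *Glud1*, which encodes glutamate dehydrogenase, had a Log2FC of 0.35 (edgeR adjusted p = 0.0936). The glutamine carriers *Slc38a2* and *Slc1a5* had Log2FC of 0.23 (edgeR adjusted p = 0.336) and 0.37 (edgeR adjusted p = 0.623).

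**Figure D4:**
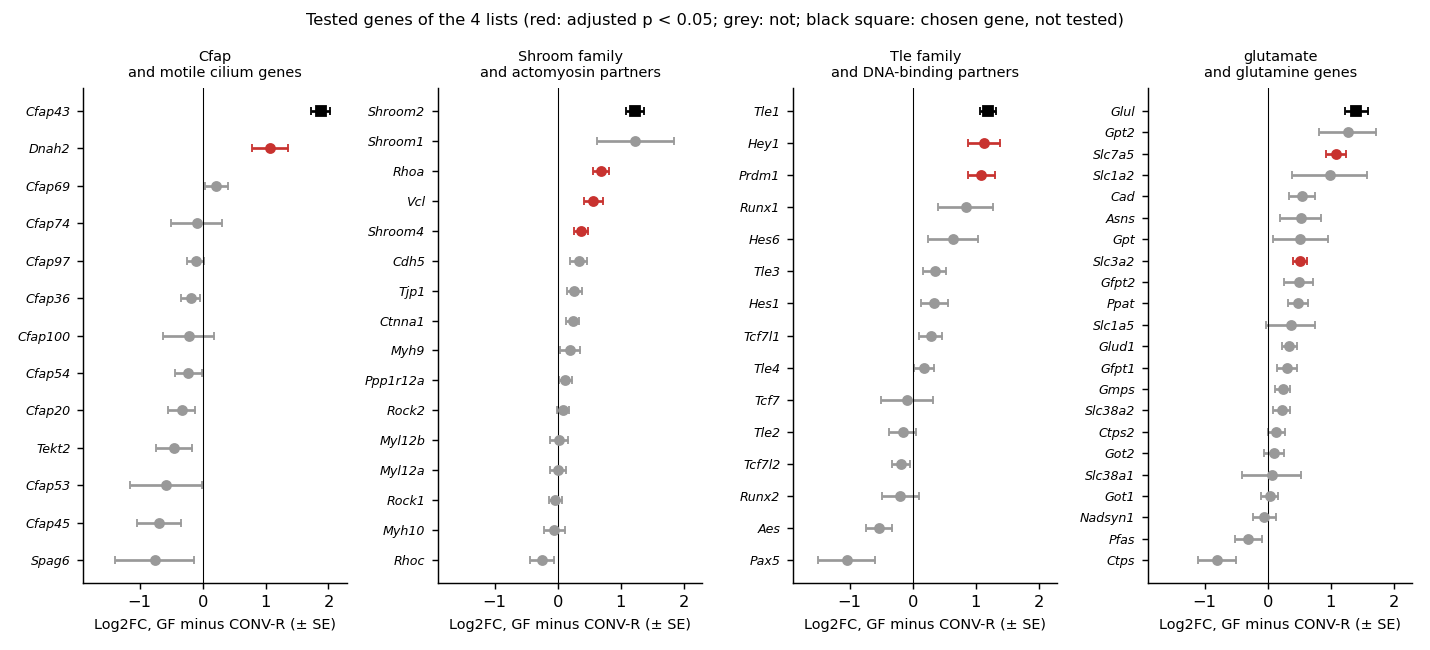
Log2FC (GF minus CONV-R) with SE bars of tested genes in the 4 lists, 1 point per gene, in red where the adjusted p was under 0.05, grey otherwise, and as a black square for the 4 chosen genes. The 12 cilium genes centre at -0.22 with *Dnah2* apart at 1.07, and *Slc7a5* (1.08) and *Slc3a2* (0.51) are the glutamine genes in red.

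Since *Glul* is abundant in pericentral hepatocytes, hepatocyte RNA was followed beside it. The summed level of 9 tested hepatocyte markers and *Cyp3a11* was 27.6 to 58.4 CPM in CONV-R mice and 32.3 to 64.2 CPM in GF mice, and none of the 9 had an adjusted p below 0.142 (edgeR). *Alb*, the most abundant of them, was at 28.0 ± 7.9 and 32.7 ± 10.8 CPM, below *Glul* in both group means. *Cyp2e1*, which marks the same pericentral hepatocytes as *Glul*, was at 3.14 ± 2.00 and 3.02 ± 4.26 CPM, and *Oat* at 51.8 ± 14.6 and 51.4 ± 8.6 CPM. *Cyp2e1* was highest in GF mouse 1 (10.3 CPM), the mouse with the most *Glul*, and between 0.286 and 3.28 CPM in the other GF mice.

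Of the 4 tested pericentral hepatocyte markers, 1 rose (25%, against 4.80% of all tested genes), *Tbx3*, a T-box factor that other cells express too, from 0.492 ± 0.307 to 6.49 ± 4.09 CPM (Log2FC 3.68, SE 0.57, edgeR adjusted p = 0.000847). *Slc1a2*, a glutamate carrier, was at 0.650 ± 0.372 and 1.34 ± 0.87 CPM (Log2FC 0.98, edgeR adjusted p = 0.338), and *Lgr5*, which had too few counts for a test, had 20 and 44 counts. The median Log2FC of the 4 tested markers was 0.49, and all 8 of the list summed to 40.0 to 83.9 CPM in CONV-R mice and 58.3 to 69.8 CPM in GF mice. *Oat* made up most of this sum in every mouse, so the sum says little about the other markers. It was above *Alb* in both group means, and which cells its RNA came from was not tested. With the mean log2 CPM of the hepatocyte markers as a covariate, the Log2FC of *Glul* was 1.39. That mean gives markers with few counts the same weight as *Alb*, so it is a noisy measure of hepatocyte RNA. Over the 6 CONV-R mice, *Glul* and the summed hepatocyte markers had r = 0.48 (p = 0.315, two-sided exact permutation test) and ρ = 0.20 (p = 0.714, exact permutation), and r = 0.01 without the 2 mice farthest from the median of the markers.

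The Kupffer cell markers were followed in the same way, since macrophages express *Glul* and their markers rose. With their mean log2 CPM as a covariate, the Log2FC was 1.41 for *Glul*, 1.66 for *Cfap43*, 1.19 for *Shroom2* and 1.26 for *Tle1*. GF mouse 6 had the highest sum of these markers (912 CPM) and the lowest *Tle1* of the GF mice (258 CPM), while it was the next highest after GF mouse 2 for *Cfap43* (127 CPM), the next lowest for *Shroom2* and in the middle for *Glul*. Among the 4 genes, *Cfap43* had the Log2FC that moved most with this covariate, from 1.88 to 1.66. Of 8 relations between the 4 genes and both marker sums over the CONV-R mice, none passed (lowest adjusted p = 0.824 for r, exact permutation tests).

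The 3 nearest tested genes on either side of each gene were read as neighbours, 24 in all. 4 of them rose in GF mice (16.7%, against 4.80% of all tested genes), and the median Log2FC of the 24 was 0.05. They lay next to *Cfap43* (*Gsto1*), *Shroom2* (*Gpr143* and *Kdm5c*) and *Tle1* (*C630043F03Rik*), and none of the 6 neighbours of *Glul* passed the test, the lowest adjusted p among them being 0.068 (*Npl*, edgeR).

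*Gpr143*, which encodes a receptor of pigment cell organelles, starts 12456 bases from the 5′ end of *Shroom2* and is read in the opposite direction (plus strand, bases 152781921 to 152808646 of chromosome X). It was at 0.853, 1.23, 1.96, 0.884, 0.727 and 1.09 CPM in CONV-R mice 1 to 6 and at 4.29, 4.06, 2.48, 3.17 and 4.34 CPM in GF mice 1, 2, 4, 5 and 6. The groups did not overlap, at 9 to 18 counts per CONV-R library and 24 to 66 per GF library. Its Log2FC was 1.72 (SE 0.36, edgeR adjusted p = 0.00806), and it passed in all 18 alternatives in which it could be tested.

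*C630043F03Rik* starts 429 bases from the 5′ end of *Tle1* and is also read away from it (plus strand, bases 72201348 to 72215352 of chromosome 4). It was at 3.63 CPM or less in CONV-R mice and at 6.63, 6.28, 5.90, 7.54 and 3.66 CPM in GF mice 1, 2, 4, 5 and 6. GF mouse 6, the lowest for *Tle1*, was also the lowest here, just above the highest CONV-R mouse. The Log2FC was 1.19 (SE 0.30, edgeR adjusted p = 0.0201), and its adjusted p stayed below the threshold in all 19 alternatives, by little in the least of them (0.04998).

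*Gsto1*, a glutathione transferase gene, lies on the plus strand inside the annotated span of *Cfap43* (bases 47854970 to 47864790 of chromosome 19) and shares no exonic base with it. It rose from 16.1 ± 2.8 CPM to 25.2 ± 3.2 CPM (Log2FC 0.65, SE 0.16, edgeR adjusted p = 0.0191), with 20.0 CPM in the highest CONV-R and 22.0 CPM in the lowest GF mouse. The call was lost without CONV-R mouse 4 or 5 or GF mouse 6, with adjusted p of up to 0.0567 (edgeR). *Kdm5c*, an X-linked histone demethylase gene 334974 bases from *Shroom2*, rose from 49.0 ± 7.6 CPM to 66.5 ± 4.7 CPM (Log2FC 0.44, SE 0.13, edgeR adjusted p = 0.0422), but passed in only 5 of 19 alternatives.

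**Figure D5:**
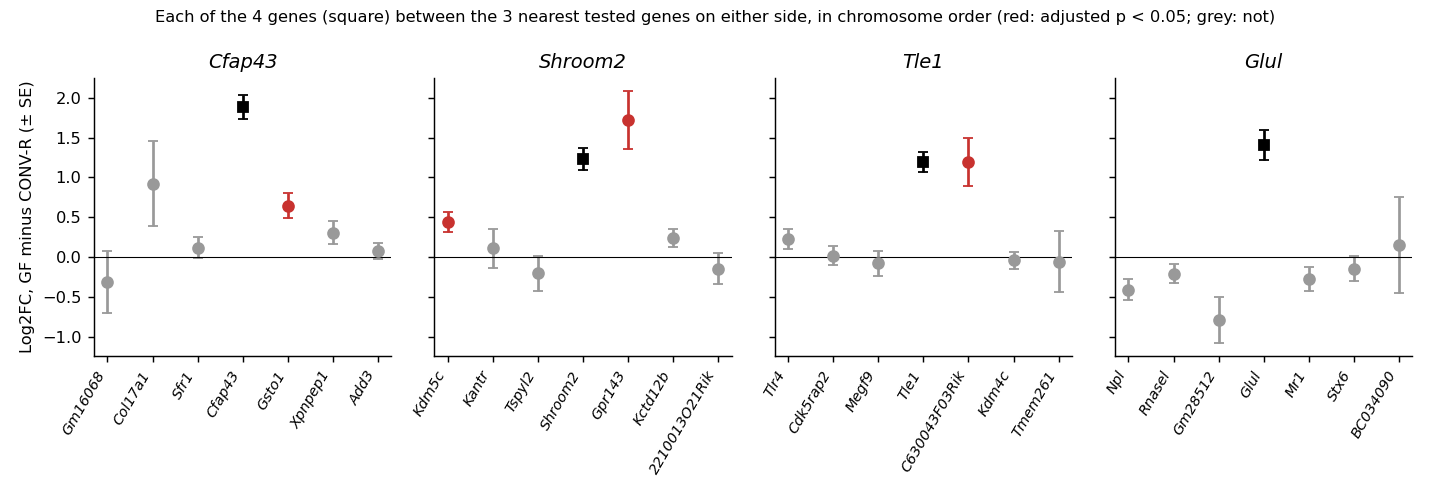
Log2FC (GF minus CONV-R, with SE bars) of each of the 4 genes (black squares) and of the 3 nearest tested genes on either side, in red where the adjusted p was under 0.05, with the genes of each panel in chromosome order. *Gpr143* (1.72) and *C630043F03Rik* (1.19), next to the 5′ ends of *Shroom2* (1.23) and *Tle1* (1.19), stand apart from the neighbours of *Glul*.

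The libraries do not keep the strand of the RNA, so reads from overlapping genes cannot be told apart. *Shroom2* shares no exonic base with another annotated gene. *Tle1* shares 247 exonic bases with the antisense gene *Gm11250*, and *Glul* shares 116 with *Teddm2*, and these had 3 and 4 counts in all CONV-R libraries and 10 and 3 counts in all GF libraries. *Cfap43* shares 164 bases, or 2.32% of its exons, with *Itprip*, whose counts were not used here, and 82 with the microRNA gene *Gm22240*. *Glul* also shares 93 bases with *Mir8114*, and neither microRNA gene was analysed here.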

How the data were processed

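RNA of sorted liver ECs was sequenced from 6 CONV-R and 5 GF mice, 1 library per mouse, so that errors and p-values cover the spread between mice. The authors trimmed reads, mapped them to GRCm38 with STAR and deposited raw counts per gene without normalization. They also deposited log2 values normalized across libraries with the DESeq method. The submitters' processing notes name mm10. The annotation release and the strand setting of the counting are not given in the sources used here. No columns of per-sample values were left unmapped, and the tables hold no comparisons by the authors.

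Counts were analysed in R 4.3.3 with edgeR 4.0.16. Genes were kept with filterByExpr and scaled by TMM, and groups were compared with the quasi-likelihood test of edgeR. The p-values of 12905 genes were adjusted by the Benjamini-Hochberg method, with a threshold of 0.05. Log2 CPM used a prior count of 2. Relations were tested in Python 3.11.15 with scipy 1.17.1 by two-sided exact permutation, and plots were drawn with matplotlib 3.10.9. Positions came from GENCODE M21 on GRCm38, which held 29081 of the 29307 listed genes, and upstream sequences from RefSeq on GRCm38.p6. The test was tried on simulated counts with 200 changed genes. Counting error limits weakly expressed genes.

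The 4 genes, the gene lists and the motifs were chosen with earlier results of these data known. The rule for named genes covered the 4 genes, genes of the 4 lists of relatives and partners past the threshold, paralogs and main glutamine enzymes and carriers. It also covered the 3 tested genes on either side, the top marker of each marker list and the 3 genes most like each of the 4. Not every neighbour and top marker is named above. *Adhfe1* to *Ctdsp1* were ranked by Pearson's r of log2 CPM after subtracting group means. *Cfap69*, the motile ciliated cell markers other than *Ccdc39*, *Erg*, *Cyp2e1*, *Oat*, *Lgr5*, *Tbx3*, *Rock1*, *Rock2*, *Myh9* and *Myh10* were named after their values were seen. Of the lists, 42 of 49 written cilium genes, 17 of 18 Shroom, 25 of 28 Tle and 28 of 28 glutamine genes are in the count table.

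Alternatives were DESeq2 1.42.0 (the authors' tool), its size factors, voom of limma 3.58.1, no filter, at least 10 counts in every library, a block for the replicate number, the mean log2 CPM of Kupffer cell or hepatocyte markers as a covariate and each mouse left out in turn. Leaving out GF mice 5 and 6 together was added after the data were seen. The qRT-PCR data and the mice of other colonization states were not analysed here, and 1 gene of the glutamine list that the rule names is counted but not reported here.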

Additional observations from a re-analysis of the deposited data

Results flagged for a closer look

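Of 52 values per group checked, 3 had a mouse far from the others of its group, and chance flags about 1 in 20 groups. *Rhoa* was at 57.8 CPM in CONV-R mouse 3, against 72.4 to 79.4 CPM in the other CONV-R mice. The summed pan-endothelial markers were at 9561 CPM in GF mouse 5, against 13930 to 14440 CPM in the other GF mice, and this mouse had the lowest *Shroom2* of its group. The summed Kupffer cell markers were at 912 CPM in GF mouse 6, against 193 to 354 CPM in the other GF mice, and this mouse had the lowest *Tle1* of its group. None of the 4 genes had such a mouse in either group. Without GF mice 5 and 6, the Log2FC was 1.80 for *Cfap43*, 1.41 for *Shroom2*, 1.30 for *Tle1* and 1.47 for *Glul*.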

How the results depend on the processing

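Across all alternatives the Log2FC of the 4 genes stayed above 0, at 1.66 to 1.98 for *Cfap43*, 1.12 to 1.41 for *Shroom2*, 1.11 to 1.30 for *Tle1* and 1.26 to 1.54 for *Glul*. With DESeq2, 1535 genes passed (931 higher, 604 lower) in place of 965 (620 and 345), and the cause was not tested. With each mouse left out in turn, 622 to 1260 genes passed (413 to 779 higher, 206 to 481 lower), 0 to 1 of the cilium list, 1 to 6 of the Shroom list, 2 to 3 of the Tle list, 2 to 4 of the glutamine list and 2 to 4 of the neighbours. Without GF mice 5 and 6, 1 gene of the Tle list and 2 neighbours passed, where *Hey1* (edgeR adjusted p = 0.0902), *Slc3a2* (0.0557), *Gsto1* (0.105) and *Kdm5c* (0.122) were lost. Same-numbered mice are different animals, and the correlation of their deviations was 0.20, 0.05, -0.01, 0.02 and 0.09 for replicates 1, 2, 4, 5 and 6, so the numbers were not taken as a pairing. With the replicate block, 1101 genes passed, 688 higher and 413 lower, against 931 for the same 10 libraries without it, and 3 of the glutamine list, 3 of the Shroom list and 3 neighbours. Depth limits *Gpr143* and *C630043F03Rik*, whose lowest libraries held 9 and 18 counts, and the cilium genes that could not be tested. Over the CONV-R mice, some correlations that did not pass the test changed sign with a mouse left out. Their r ran from -0.42 to 0.50 for *Cfap43* and *Tle1* (below 0 without mouse 1 or 6) and from -0.57 to 0.10 for *Shroom2* and *Tle1* (above 0 without mouse 1, 2 or 5). With the Kupffer cell markers, r ran from -0.50 to 0.38 for *Cfap43*, from -0.45 to 0.90 for *Tle1* and from -0.30 to 0.63 for *Glul*, and for *Tle1* it was -0.0012 with DESeq2's size factors and -0.013 with the deposited log2 values, against 0.0052.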
